A study of Mus musculus with 6 samples.

Results

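The genes described here are 10 members of the CC chemokine system that draw monocytes into tissue, 8 ligands (Ccl2, Ccl3, Ccl4, Ccl6, Ccl7, Ccl8, Ccl9 and Ccl12) and 2 receptors (Ccr1 and Ccr2). They were found by their symbols in the array annotation, and all 10 were matched, each by 1 probe set, among 19938 genes. RNA of back skin from BALB/c mice, all male, inbred and 5 to 6 weeks old, was hybridised to Affymetrix gene arrays. The 3 groups were intact skin, wounds on day 1 and wounds on day 4 after 4 mm punch wounds down to the fascia, with 2 arrays each and no other treatment, genotype or transgene in the labels. A biopsy of 8 mm took the wound with the skin around it. The labels call replicates biological without saying whether an array held 1 animal, a pool, 1 wound or several, so p-values measure the spread between these samples. All values are log2 intensities, and a difference of 1 is a 2-fold change.

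CC chemokines are small secreted proteins named for adjacent cysteines near the start of the mature chain, and they guide leukocytes through G protein-coupled receptors. CCL2, CCL7 and CCL12 act on CCR2, the receptor that lets classical monocytes leave the bone marrow and enter injured tissue. CCL3, CCL6 and CCL9 act on CCR1 of monocytes and neutrophils, CCL4 is a macrophage inflammatory protein, and mouse CCL8 is known as a ligand of CCR8. In skin wounds these signals are known for the recruitment of the monocytes that become wound macrophages.

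The ligand genes lie in groups of neighbours on chromosome 11, and the stretch upstream of a gene is where factors such as NF-kB and AP-1 bind. Upstream sequence for 7 of the 10 genes was found in a RefSeq table of assembly GRCm38.p6, which is of strain C57BL/6J and not BALB/c. Those of 4 genes are shown: Ccl12 and Ccl8 are neighbours whose day 4 means moved in opposite directions from day 1, Ccl3 had the largest rise of the 10, and Ccl9 held an NF-kB match. The 250 bases before the start of each gene are printed 5′ to 3′, with matches to the TATA box (TATAAA) and the NF-kB consensus on either strand in capitals. They cover chr11:82101595-82101844 (plus strand) for Ccl12, chr11:82114935-82115184 (plus strand) for Ccl8, chr11:83649379-83649628 (minus strand) for Ccl3 and chr11:83578637-83578886 (minus strand) for Ccl9.
Ccl12: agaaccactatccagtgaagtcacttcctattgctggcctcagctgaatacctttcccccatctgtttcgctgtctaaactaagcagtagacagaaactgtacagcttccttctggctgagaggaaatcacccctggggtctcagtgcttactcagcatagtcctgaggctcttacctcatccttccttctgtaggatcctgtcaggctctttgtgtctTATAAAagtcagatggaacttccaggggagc
Ccl8: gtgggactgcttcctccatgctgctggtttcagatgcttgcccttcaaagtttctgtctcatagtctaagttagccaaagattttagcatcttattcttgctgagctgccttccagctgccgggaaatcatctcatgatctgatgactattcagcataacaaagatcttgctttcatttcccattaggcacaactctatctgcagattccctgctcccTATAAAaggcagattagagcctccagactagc
Ccl3: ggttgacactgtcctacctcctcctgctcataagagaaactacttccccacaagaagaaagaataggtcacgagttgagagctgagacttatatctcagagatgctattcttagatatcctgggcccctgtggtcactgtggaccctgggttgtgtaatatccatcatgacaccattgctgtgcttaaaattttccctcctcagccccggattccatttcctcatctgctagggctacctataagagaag
Ccl9: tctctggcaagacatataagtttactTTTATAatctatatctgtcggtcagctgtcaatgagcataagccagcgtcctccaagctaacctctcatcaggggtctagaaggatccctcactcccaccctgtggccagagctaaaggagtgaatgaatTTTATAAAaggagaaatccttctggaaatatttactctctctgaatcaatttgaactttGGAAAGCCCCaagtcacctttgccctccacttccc
The TATA box stood 31 to 26 bases before the start in Ccl12 and 32 to 27 bases before it in Ccl8. Of the 7 windows 3 held TATAAA on either strand, against 12.4% of 32851 windows in the table, and the third was Ccl9. Its matches lay farther from the start, at 224 to 219, 94 to 89 and 92 to 87 bases before it. Ccl9 was also the 1 window of 7 with an NF-kB consensus, 35 to 26 bases before the start, against 3.9% of all windows. The AP-1 site TGAGTCA, read on either strand, was in 0 of 7 and in 4.46% of all windows. These are matches of letters, and sites farther away were not searched.

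Quartiles of the 6 arrays were close to each other, with lower quartiles of 5.29 to 5.37 and medians of 6.89 to 6.93. The authors' processing equalises the arrays' distributions, so this closeness does not measure quality. Over all genes replicates correlated with r = 0.9861 to 0.9967, where genes are not independent replicates. The tissue label was borne out by keratinocyte markers (list mean 11.59 to 12.05 on the 6 arrays) and fibroblast markers (10.63 to 11.62). The intact pair was uneven for the chemokine genes: 7 of the 10 were higher on intact replicate 2, with a median absolute difference between the replicates of 0.63 against 0.09 over all genes. Classical monocyte markers (list mean 6.31 and 6.72) and macrophage markers (8.16 and 8.49) were also higher on intact replicate 2, and their part in that difference was not tested. Values without each intact array are therefore given where they move a fold by more than 1.5 times.

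All 10 genes were higher in wounds than in intact skin on day 1 and on day 4. On day 1 the limma test called 10 of 10 higher (adjusted p under 0.05), against 14.7% of all genes (14.6% were lower and 29.3% called in either direction), with log2 differences between 1.48 for Ccl8 and 6.37 for Ccl3. Their median was 3.09, and that of all genes was −0.04. On day 4 it again called 10 of 10 higher, against 14.8% of all genes (12.1% lower, 26.9% in either direction), between 1.46 for Ccl12 and 6.20 for Ccl3, with a median of 2.31 against −0.03 for all genes. From day 1 to day 4 it called 2 of 10 lower, Ccl2 and Ccl12, against 1.14% of all genes, and 0 of 10 higher, against 1.09%. These biopsies mix many cell types, so more cells of a type and more RNA per cell cannot be told apart. Both wound comparisons share the intact arrays.

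**Figure D1:**
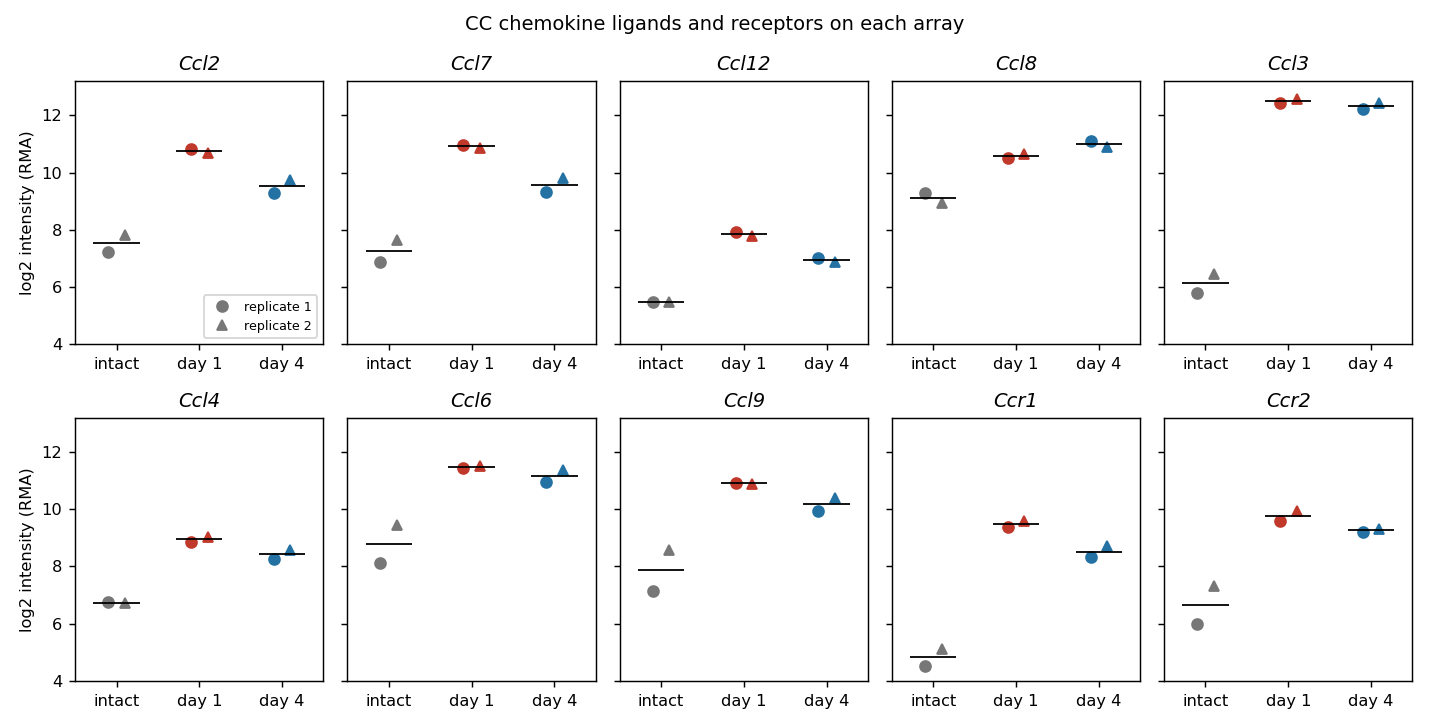
Log2 intensity (vertical axis) of the 10 genes on each of the 6 arrays, by group, with circles for replicate 1, triangles for replicate 2 and a line at the group mean. All wound arrays lie above both intact arrays for every gene, and the intact pair is spread widest for Ccl9, Ccr2 and Ccl6. Over all genes, both day 1 arrays lay above both intact arrays for 29%, and both day 4 arrays did for 30%.

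Ccl2 encodes the main monocyte attractant that acts on CCR2. Its log2 intensity (probe set 10379511) was 7.24 and 7.82 on the intact arrays, 10.82 and 10.70 on day 1, and 9.29 and 9.74 on day 4. The 3 groups did not overlap, with day 1 highest. The rise was 9.38-fold on day 1 (95% interval 6.51 to 13.5, limma adjusted p = 2.34e-04) and 3.96-fold on day 4 (2.75 to 5.7, adjusted p = 0.0017). Between the days Ccl2 fell by 1.25 (SE 0.22, adjusted p = 0.0486), which keeps 61.5% of the day 1 rise on the log2 scale. That call was lost without any 1 of the 6 arrays, with falls between 1.02 and 1.47 and adjusted p between 0.0732 and 0.208.

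Ccl7 lies next to Ccl2, and its product acts on CCR2, CCR1 and CCR3. The values (probe set 10379518) were 6.89 and 7.65 in intact skin, 10.96 and 10.87 on day 1, and 9.33 and 9.80 on day 4, in the same order of groups as Ccl2 and again without overlap. It rose 12.5-fold on day 1 (8.1 to 19.3, adjusted p = 2.80e-04) and 4.91-fold on day 4 (3.18 to 7.58, adjusted p = 0.00189). Its day 4 minus day 1 difference of −1.35 (SE 0.26, 95% interval −1.98 to −0.72) was the lowest of the 10 but did not pass limma's adjustment over all genes (adjusted p = 0.0604).

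Ccl12 encodes another CCR2 ligand of the mouse. Its intact arrays agreed closely at 5.49 and 5.46 (probe set 10379530), day 1 stood at 7.92 and 7.78 and day 4 at 7.0 and 6.86. Replicates thus differed by at most 0.14 in each group, the tightest of these genes in the pooled fit. The rise was 5.19-fold on day 1 (4.48 to 6.01, adjusted p = 3.55e-05) and 2.74-fold on day 4 (2.37 to 3.18, adjusted p = 2.70e-04). It fell by 0.92 between the days (SE 0.09, adjusted p = 0.0141). This call held without day 4 wound replicate 2 and was lost without any other array, with an adjusted p of at most 0.0985 and falls between 0.85 and 0.99.

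Ccl8 was the member whose day 4 mean lay above its day 1 mean. The arrays (probe set 10379535) read 9.27 and 8.92 in intact skin, 10.51 and 10.64 on day 1, and 11.09 and 10.89 on day 4, so both day 4 arrays were above both day 1 arrays. The rise against intact skin was 2.79-fold on day 1 (2.22 to 3.5, adjusted p = 6.79e-04), the smallest of the 10, and 3.72-fold on day 4 (2.96 to 4.67, adjusted p = 4.33e-04). The difference between the days of 0.42 (SE 0.14, 95% interval 0.09 to 0.74) did not pass limma's adjustment over all genes (adjusted p = 0.176). Ccr8, which encodes its known receptor, was under the lower quartile on all 6 arrays, so signal near background limits its values. They differed from intact skin by 0.07 on day 1 (limma adjusted p = 0.688) and 0.18 on day 4 (adjusted p = 0.302).

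Ccl3 encodes a ligand of CCR1 made by activated macrophages and neutrophils. Its intensities (probe set 10389231) were 5.79 and 6.47 in intact skin, 12.44 and 12.56 on day 1, and 12.22 and 12.43 on day 4. The lowest wound array stood above the higher intact array by 5.97 on day 1 and by 5.75 on day 4. Of all 19938 genes it had rank 3 by size of rise on day 1 and rank 2 on day 4. The fold was 82.7 on day 1 (58 to 118, adjusted p = 2.83e-05) and 73.3 on day 4 (51.3 to 105, adjusted p = 6.37e-05). The day 4 minus day 1 difference was −0.18 (95% interval −0.69 to 0.34, adjusted p = 0.72), so 97.3% of the log2 rise was still there.

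Ccl4, the neighbour of Ccl3, encodes a macrophage inflammatory protein that attracts monocytes and T cells. It read 6.75 and 6.73 in intact skin (probe set 10379721), 8.87 and 9.04 on day 1, and 8.27 and 8.57 on day 4. The 3 groups did not overlap, but the rises were far smaller than those of Ccl3, at 4.64-fold on day 1 (3.81 to 5.65, adjusted p = 1.03e-04) and 3.2-fold on day 4 (2.63 to 3.9, adjusted p = 4.11e-04). Day 4 minus day 1 was −0.54 (SE 0.12, 95% interval −0.82 to −0.25, adjusted p = 0.0803).

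Ccl6 and Ccl9 encode ligands of CCR1 made by myeloid cells. Ccl6 (probe set 10389222) stood at 8.11 and 9.44 in intact skin, 11.43 and 11.52 on day 1, and 10.96 and 11.39 on day 4. Ccl9 (probe set 10389214) stood at 7.15 and 8.57 in intact skin, 10.92 and 10.90 on day 1, and 9.94 and 10.40 on day 4. Intact replicate 2 was far above intact replicate 1 for both genes, by 1.33 for Ccl6 and 1.42 for Ccl9, and still below every wound array. Ccl6 rose 6.5-fold on day 1 (3.35 to 12.6, adjusted p = 0.00369) and 5.28-fold on day 4 (2.72 to 10.2, adjusted p = 0.00714). Without intact replicate 1 these folds were 4.1 and 3.33, and without intact replicate 2 they were 10.3 and 8.37. Ccl9 rose 8.28-fold on day 1 (4.09 to 16.8, adjusted p = 0.00297) and 4.96-fold on day 4 (2.45 to 10, adjusted p = 0.0102). Its folds were 5.06 and 3.03 without intact replicate 1 and 13.5 and 8.11 without intact replicate 2, and the day 4 call was lost without day 4 wound replicate 2 (adjusted p = 0.0635). Day 4 minus day 1 was −0.30 for Ccl6 (95% interval −1.26 to 0.66) and −0.74 for Ccl9 (−1.76 to 0.28), with adjusted p of 0.746 and 0.403. Their SE of 0.40 and 0.42 pools the uneven intact pair; from the 4 wound arrays alone it was 0.16 for each, with adjusted p of 0.409 and 0.143.

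Ccr1, the receptor for CCL3, CCL6 and CCL9, had the largest rise after Ccl3. It read 4.53 and 5.10 in intact skin (probe set 10598004), 9.39 and 9.60 on day 1, and 8.32 and 8.70 on day 4. Both intact arrays lay under the lower quartile of their array, and no test of signal over background was made there, which leaves the fold approximate. It was 25.6 on day 1 (18 to 36.5, adjusted p = 6.63e-05) and 13 on day 4 (9.1 to 18.4, adjusted p = 2.34e-04). Day 4 minus day 1 was −0.99 (SE 0.21, 95% interval −1.49 to −0.48), with an adjusted p of 0.0751.

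Ccr2, the receptor of classical monocytes for CCL2, CCL7 and CCL12, had intact values of 5.98 and 7.32 (probe set 10590631). Day 1 stood at 9.59 and 9.94 and day 4 at 9.20 and 9.31. The intact arrays were 1.34 apart, while the wound arrays were 0.35 apart on day 1 and 0.11 apart on day 4, all above them. It rose 8.66-fold on day 1 (4.48 to 16.7, adjusted p = 0.0021) and 6.08-fold on day 4 (3.15 to 11.8, adjusted p = 0.00508). The folds were 5.45 and 3.82 without intact replicate 1, and 13.8 and 9.68 without intact replicate 2. Day 4 minus day 1 was −0.51 (95% interval −1.46 to 0.44, adjusted p = 0.547). From the 4 wound arrays alone the SE was 0.14 and the adjusted p 0.186.

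**Figure D2:**
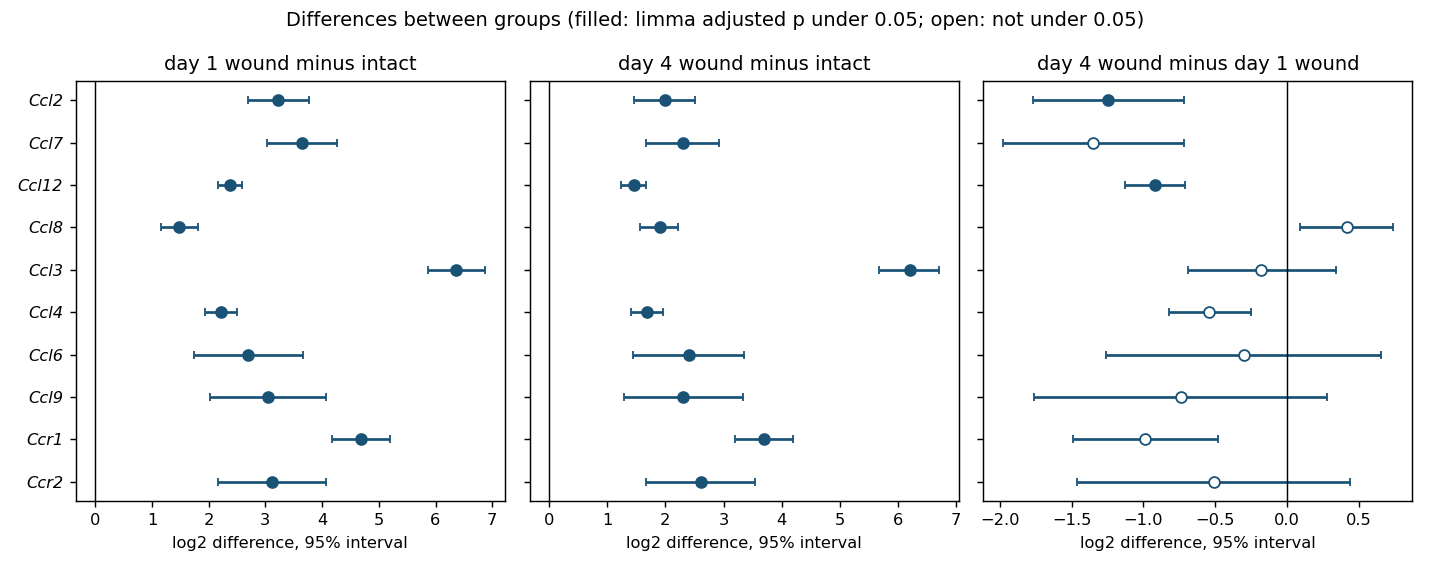
Log2 differences of the 10 genes with 95% intervals from limma (horizontal axis) for day 1 against intact skin, day 4 against intact skin and day 4 against day 1. In the third panel the filled points are Ccl2 and Ccl12, at −1.25 and −0.92, and Ccl8 at 0.42 is the point right of 0.

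Day 4 means were lower than day 1 means for 9 of 10 genes, against 47.5% of all genes, and the day 4 minus day 1 median was −0.64 against 0.01. For 10 of 10 genes the arrays of the 2 days did not overlap, as for 47.6% of all genes, beside 2.23% called in either direction. At an unadjusted limma p under 0.05 the count was 6 of 10, against 18.9% of all genes, made up of Ccl2, Ccl4, Ccl7, Ccl12 and Ccr1 lower and Ccl8 higher. By the calls, Ccl2 and Ccl12 had an early peak, with a rise on day 1 and a fall from there to day 4. The other 8 were higher on both days with no call between them. This split rests on the threshold, as Ccl7 fell by more (−1.35, limma adjusted p = 0.0604) than Ccl2 (−1.25) and Ccl12 (−0.92). The share of all genes in these classes was not counted. The log2 rise on day 4 was 61.3% of that on day 1 for Ccl12, 61.5% for Ccl2 and 63% for Ccl7, the 3 ligands of CCR2. It was 75.7% for Ccl9, 75.8% for Ccl4, 88.9% for Ccl6 and 97.3% for Ccl3. For the receptors it was 79% (Ccr1) and 83.6% (Ccr2), and for Ccl8 it was 128%. These percentages rest on the mean of the intact pair, which was most uneven for Ccl6, Ccl9 and Ccr2. Differences between genes in these percentages were not tested. On day 4, 8 of the 10 were higher on replicate 2, by a median of 0.34 over the 10, against a median of 0.03 over all genes, whose median absolute difference between the day 4 replicates was 0.11.

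In their order along chromosome 11 the coding genes Ccl2, Ccl7, Ccl11, Ccl12, Ccl8 and Ccl1 follow each other, and Ccl5, Ccl9, Ccl6, Ccl3 and Ccl4 form a second run. Ccl11, which encodes the eosinophil attractant eotaxin and lies between Ccl7 and Ccl12, rose 3.53-fold on day 1 (adjusted p = 2.42e-04) and fell by 0.84 between the days (adjusted p = 0.0361), a call lost without any 1 of the arrays (highest adjusted p = 0.19). So Ccl2, Ccl7, Ccl11 and Ccl12 all had day 4 means below day 1, by 0.84 to 1.35, while Ccl8, the next gene, had the opposite sign. Ccl1, beyond it, differed from intact skin by 0.21 on day 1 and 0.22 on day 4, and neither passed (adjusted p = 0.205 and 0.18). In the second run Ccl5, which encodes a ligand of CCR1 and CCR3, rose 9.65-fold on day 1 (adjusted p = 7.24e-04) and fell by 1.83 between the days (adjusted p = 0.0446), again a call lost without any 1 of the arrays (highest adjusted p = 0.165). Its neighbours Ccl9, Ccl6, Ccl3 and Ccl4 had no call between the days. On chromosome 9 the receptor gene Ccr3, between Ccr1 and Ccr2, was 1.66-fold higher on day 1 (adjusted p = 0.0486) and 2.18-fold higher on day 4 (adjusted p = 0.0127). These calls of Ccr3 each failed in some of the 6 fits without an array and held in 2 and 4 of them.

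**Figure D3:**
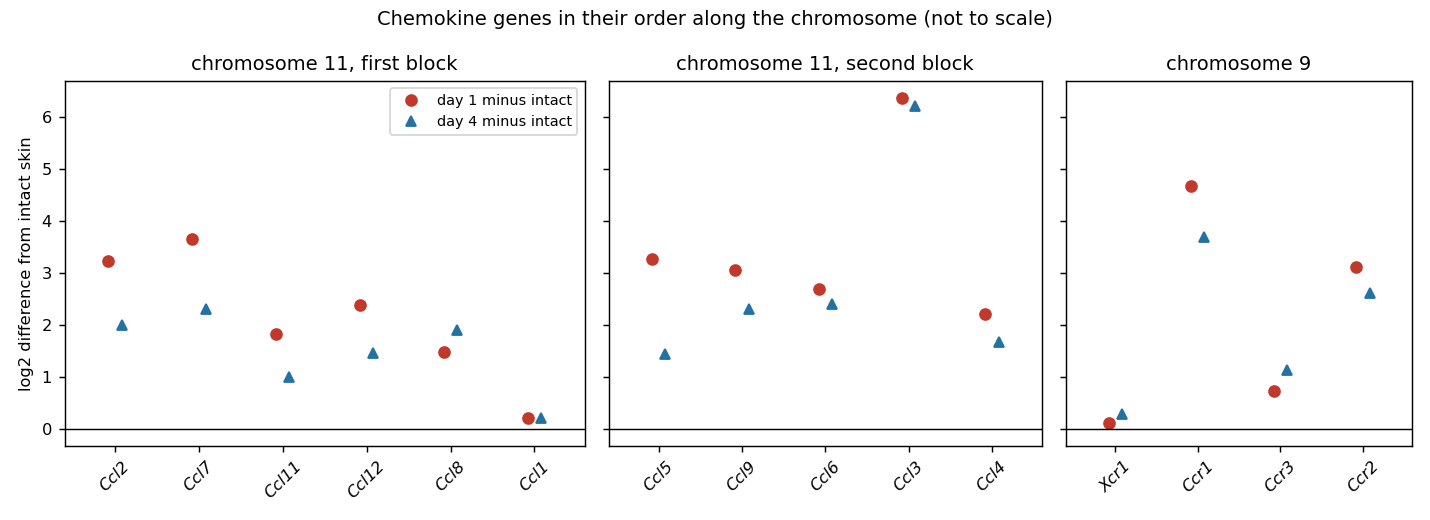
Log2 difference from intact skin (vertical axis) on day 1 (circles) and day 4 (triangles) for chemokine genes in their order along the chromosome, at equal spacing and with other genes left out. In the first block the day 4 triangle lies below the day 1 circle from Ccl2 to Ccl12 and above it for Ccl8, and in the second block Ccl3 stands highest on both days.

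Of 11 other CC chemokine genes measured, 4 rose on day 1 (Ccl5, Ccl11, Ccl19 and Ccl20) and none fell, at a list median of 0.26. On day 4, 5 rose (Ccl5, Ccl11, Ccl17, Ccl20 and Ccl22) and 1 fell (Ccl25, by 0.40), at a median of 0.61. Between the days 3 fell and 1 rose, at a median of −0.15. The day 1 rises ran from 1.23 (Ccl19) to 3.27 (Ccl5) and the day 4 rises from 0.91 (Ccl22) to 1.45 (Ccl5). Ccl20, which encodes the CCR6 ligand that attracts dendritic cells and T cells, rose 7.49-fold on day 1 and fell by 1.89 afterwards (adjusted p = 0.00816), and it kept that call without any 1 array (highest adjusted p = 0.0494). Ccl22, a CCR4 ligand, was 0.10 above intact skin on day 1 (adjusted p = 0.556) and rose 1.88-fold on day 4, with a difference between the days of 0.81 (adjusted p = 0.0338, and at most 0.169 without 1 array, where each of the 6 losses ended the call). The call of Ccl25, whose product attracts cells that carry CCR9, was lost without day 4 wound replicate 2 and without intact replicate 1. Quantile normalization and median centring each called 1 of the list lower on day 1.

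Of 12 other CC and atypical receptor genes, 7 rose on day 1 and 3 on day 4 and none fell, at medians of 0.60 and 0.33. Ccrl2, which encodes a receptor that binds chemerin and gives no chemotactic signal, led with 22.6-fold on day 1 (adjusted p = 1.08e-05) and 17.1-fold on day 4 (adjusted p = 2.33e-05), beside 25.6-fold and 13-fold for Ccr1. The smallest called rises were those of the scavenging receptor gene Ackr4 on day 1 (0.54) and of Ccr7, the receptor gene of migrating dendritic cells, on day 4 (0.82). Ackr1 rose 1.99-fold on day 1 and fell by 0.81 between the days (adjusted p = 0.0361, lost in 5 of the 6 fits without an array), and Ackr2, whose product removes inflammatory CC chemokines, was 0.39 and 0.36 above intact skin without passing (adjusted p = 0.154 and 0.186). Between the days 0 rose and 1 fell, at a median of 0.02. Leaving out an array took the count of 7 to 4 (day 1 wound replicate 1), 2 (day 1 wound replicate 2), 2 (intact replicate 1) or 3 (intact replicate 2). The count of 3 was 8 without day 4 wound replicate 1, 1 without either of the intact arrays, and 5 under cyclic loess.

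Of 12 genes of chemokine receptor signalling in leukocytes, 11 rose on day 1 and 11 on day 4, at medians of 1.24 and 1.11. The day 4 count was smaller without day 4 wound replicate 2 or either intact array. Vav1, an exchange factor for Rac, rose most, 6.41-fold and 4.74-fold, and Gnai2, the inhibitory G protein subunit these receptors couple to, rose 1.57-fold and 1.53-fold. Grk6, a receptor kinase, was the member without a call (0.25 and 0.20, adjusted p = 0.0734 and 0.144). Between the days 1 fell, Rac2, the Rac GTPase of blood cells, by 0.78 (adjusted p = 0.0427, lost without any 1 array), at a list median of −0.13, and each of the 3 other scalings called 2.

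Of 9 cytokine genes whose products are known to induce CC chemokines, 5 rose on day 1 and 4 on day 4, at medians of 0.50 and 0.09. Il1b rose 44.5-fold and 36.1-fold and Tnf 4.52-fold and 4.89-fold on the 2 days. Csf2 had the smallest called rise on day 1 (0.50) and Il1a on day 4 (1.25). Both Csf2 and Ifnb1 lay under the lower quartile on every array, so signal near background limits their values. Il6 rose 16.4-fold on day 1, from under the lower quartile on both intact arrays, and fell by 2.71 between the days (adjusted p = 0.0291, at most 0.158 without 1 array and held in 1 of 6 such fits). Il1a fell by 0.54 as the other of 2 calls between the days (adjusted p = 0.0428, lost without any 1 array), at a list median of −0.13. Ifng and Ifnb1, the interferon genes of the list, had differences between −0.15 and −0.08 from intact skin, with adjusted p between 0.493 and 0.71.

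Of 7 genes of other monocyte attractants and growth factors, 2 rose and 1 fell on day 1 and 5 rose and 1 fell on day 4, at medians of 0.11 and 0.45. Csf1, the macrophage growth factor, rose 2.94-fold and 2.39-fold and its receptor Csf1r 2.42-fold and 3.4-fold, and the smallest called rise on day 4 was that of the fractalkine receptor gene Cx3cr1 (0.33). Cx3cl1, the attractant fractalkine, stood at −0.19 and 0.02, and Cxcl12, an attractant made by stromal cells, fell by 0.26 and 0.30 (adjusted p = 0.0426 and 0.0284). Its day 1 call was lost without either day 1 or either intact array, and its day 4 call without day 4 wound replicate 2 or either intact array. The count of 5 was 2 without intact replicate 1 and 3 without intact replicate 2, without either of the day 4 arrays, under quantile normalization and under median centring. Between the days limma called 0 of the 7, with a median of 0.23. At an unadjusted p under 0.05 the count was 4 of 7, against 18.9% of all genes, and quantile normalization and cyclic loess each called 1 higher.

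Markers of the cells that carry these receptors moved in the same biopsies. The 6 classical monocyte markers measured all rose on both days, from a list mean of 6.31 and 6.72 on the intact arrays to 9.98 and 10.21 on day 1 and 9.09 and 9.16 on day 4. Cd14, the lipopolysaccharide co-receptor, rose 26.6-fold and F13a1, coagulation factor XIII of monocytes, 3.58-fold on day 1. On day 4 the rises ran from 0.76 for Chil3 to 3.72 for Ms4a4c, which was 13.1-fold, and 8.2-fold without intact replicate 1 or 21-fold without intact replicate 2; its day 1 fold of 25.3 was 15.8 and 40.5 without them. Between the days 3 of the 6 fell, from Cd14 (−1.07) to Chil3 (−1.80), at a median of −1.01, a count that was 0 or 1 without any 1 array. Of 11 neutrophil markers 9 rose on day 1 and 8 on day 4, with list means of 5.72 and 5.82, then 9.37 and 9.79, then 8.31 and 8.56. The called rises ran from 2.27 (Ngp) to 6.08 (Mmp8) on day 1 and from 1.54 (Ly6g) to 4.65 (Trem1) on day 4. Camp (−0.17 and −0.25) and Ltf (0.26 and 0.13) had no call on either day, and Ngp (0.35) had none on day 4. These were named after their values were seen. Between the days 4 fell, from Csf3r (−1.10) to Ly6g (−2.53), at a median of −1.0, and the count was 2 without day 1 wound replicate 2, day 4 wound replicate 1 or either intact array. Of 11 macrophage markers 10 rose on day 1 and 11 on day 4, with list means of 8.16 and 8.49, then 9.82 and 9.97, then 10.12 and 10.16. The called rises ran from 1.07 (C1qa) to 3.35 (Fcgr1) on day 1 and from 0.45 (Mertk) to 2.57 (Adgre1) on day 4. Between the days 2 rose, C1qa by 0.89 and C1qc by 0.58, and 0 fell, at a median of 0.42. Of the 11, 9 had day 4 means above day 1 and 2 below it, Fcgr1 at −0.86 (adjusted p = 0.0764) and Cd68 at −0.25 (adjusted p = 0.624), named after their values were seen. The count of 2 was 0 or 1 without any 1 array, 4 under quantile normalization and 1 under median centring. The part of these markers in the chemokine values was not tested. One classical monocyte marker and 2 neutrophil markers lay under the lower quartile on both intact arrays, and none of these lists had a gene under it on every array.

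Lists of other cell types had smaller medians than these 3 on both days. Of 7 dendritic and Langerhans cell markers 6 rose and 1 fell on each day, from Cd207 (0.56 and 0.52) to Clec10a (1.42 and 1.82), with Zbtb46 lower by 0.30 and 0.36, at medians of 0.75 and 1.09. The Zbtb46 calls were lost without either intact array, for day 1 also without either day 1 array or under cyclic loess, and for day 4 also when day 4 wound replicate 2 was left out. Of 8 T and NK cell markers 3 and 4 rose, Cd3g most (1.10 and 0.91) and least Cd2 on day 1 (0.43) and Ncr1 on day 4 (0.50), at medians of 0.32 and 0.44, and 1, Cd4, rose between the days by 0.71 (adjusted p = 0.0388, lost without any 1 array). Of 6 mast cell markers 4 rose on each day, Cpa3 most (1.29 and 1.04) and Tpsb2 least (0.48 and 0.32), at medians of 0.53 and 0.42, and the day 4 count was 1 without day 4 wound replicate 2 or either intact array. Of 6 fibroblast markers 3 and 4 rose, at medians of 0.42 and 0.71, with Pdgfra highest on day 1 (1.74) and Lum on day 4 (1.62) and Dcn the smallest called on both (0.51 and 0.60). Of 6 keratinocyte markers 3 rose on each day, Itga6 most (1.11 and 0.97) and Krt14 least (0.37 and 0.60), at medians of 0.31 and 0.43. The day 1 count was 1 without day 1 wound replicate 1 or intact replicate 2, and cyclic loess and median centring each called 1 of the list lower on day 4. Apart from Cd4, limma called none of these 5 lists' genes between the days.

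**Figure D4:**
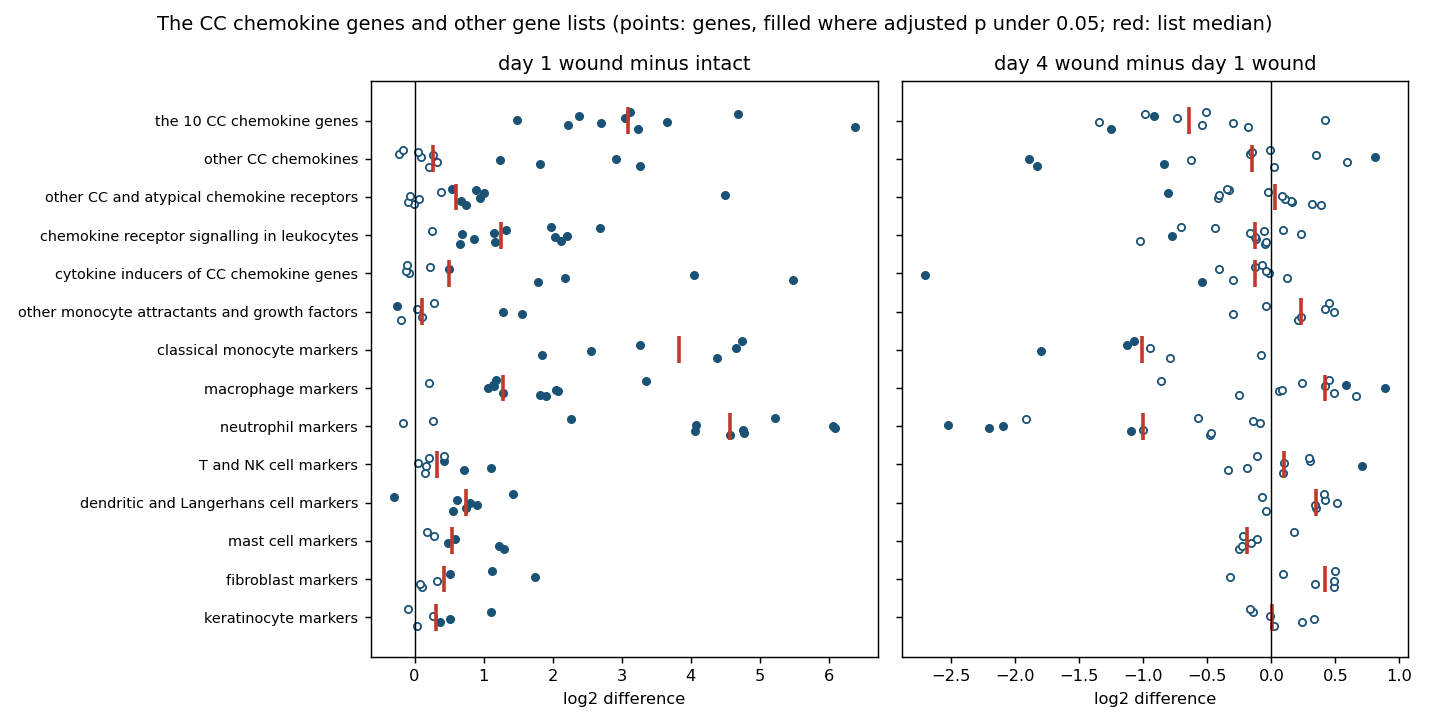
Log2 differences (horizontal axis) of the 10 chemokine genes and of the genes of 13 lists, for day 1 against intact skin and day 4 against day 1, with points filled at a limma adjusted p under 0.05 and a red bar at each median. On the right the medians of classical monocyte and neutrophil markers (−1.01 and −1.0) lie left of 0 with that of the chemokine genes (−0.64), and the macrophage median (0.42) lies right of it.

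Over these 13 lists the calls between the days were fragile: of 18 genes called, 3 (Ccl20, Ly6g and Mmp8) stayed called in each of the 6 fits without an array, and 9 were called in none of them. Against intact skin 60 of 74 called list genes kept their calls in all 6 fits for day 1, and 54 of 76 for day 4. Among the genes named above, those lost in at least 1 fit included Ackr4, Csf2, Cd2, Cd207 and Krt14 for day 1. For day 4 they included Ccl5, Ccr7, Gnai2, Cx3cr1, Il6, Chil3, Mertk, Ncr1, Cd207, Cpa3 and Tpsb2. Over all genes the day 4 calls against intact skin split into 2958 higher and 2413 lower, but into 2574 and 3345 under median centring. Those between the days split into 217 higher and 227 lower, but into 195 and 310 under cyclic loess and 184 and 284 under median centring. All differences of the 10 chemokine genes kept their sign under quantile normalization, cyclic loess and median centring.

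The genes whose pattern over the 6 arrays was most like each chemokine gene were found by the distance between log2 values with the intact mean subtracted, the root of the summed squared differences. They were picked by this measure from 19938 genes, so the likeness is a description. Nearest to Ccl2 were Il7r, an interleukin receptor gene (distance 0.42), the leukocyte adaptor gene Lcp2 (0.50) and the protease gene Mmp19 (0.51). Nearest to Ccl7 were Lcn2, an iron-binding protein gene (0.45), the scavenger receptor gene Msr1 (0.48) and Fcgr1 (0.60). Ccl12 had the closest match of all in Ifi205, an interferon-inducible gene (0.16), followed by Scimp (0.24) and 5430427O19Rik (0.40). Ccl8 was nearest to Irf8, a transcription factor of the monocyte lineage (0.38), Cstdc6 (0.38) and Rbp2 (0.46). Ccl3 had few genes near it: the neutrophil attractant Cxcl2 (0.67), the lectin receptor Clec4e (0.92) and, at 1.93, Il1b. Ccl4 lay nearest to Pde7b (0.17), the Toll-like receptor gene Tlr2 (0.20) and Slc25a48 (0.26). Ccl6 was nearest to Nckap1l, a regulator of actin in blood cells (0.49), Ccl9 (0.52) and the leukotriene synthesis gene Alox5ap (0.53). Ccl9 in turn was nearest to Ccl6 (0.52), Ccr2 (0.56) and Msr1 (0.56); these 3 chemokine genes had the widest intact pairs. Ccr1 was nearest to Cd14 (0.21), the neutrophil chemokine receptor gene Cxcr2 (0.28) and Lilr4b (0.47). Ccr2 was nearest to Nckap1l (0.36), the integrin gene Itgam of myeloid cells (0.56) and Ccl9 (0.56).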

How the data were processed

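The values deposited by the authors are log2 intensities of probe sets. Per the submitters' processing notes they come from RMA, which subtracts background, equalises the arrays' distributions and combines probes; no version is stated in the sources used here. RNA integrity numbers were 7.7 to 9.1 per the labels. Of 35556 probe sets, 21789 had 1 gene symbol in the array annotation, 12146 had no entry and 1621 had several symbols, which were not used. The brightest probe set over the 6 arrays stood for each of 19938 genes (999 had several, none of the 10 members). Symbols were checked against RefSeq (GRCm38.p6), where 21698 identifiers were found, 91 were not and 0 symbols changed.

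All 6 arrays were fitted with limma 3.58.1 in R 4.3.3 (a mean per group, eBayes, 3 residual and 3.4 prior degrees of freedom), two-sided, with Benjamini-Hochberg adjustment over all genes and a threshold of 0.05. On data simulated for the day 1 comparison over 19938 genes, it recovered 73 of 100 genes changed by 1 and 97 of 100 changed by 2 on the log2 scale, with 11 false calls. No other genes were changed in the simulation, while limma called 29.3% of genes on day 1 in the data. The share recovered can therefore differ in the data, and the other comparisons were not simulated. Precision is limited by how few arrays there are. Of 120 entries in 13 lists 112 were matched and the other 8 are not reported here, and Csf1r stands in 2 lists. Named genes were the members, the largest and smallest called rise and fall of each list in each comparison, further genes of the pathway lists, and the 3 nearest genes to each member; Xcr1 in the gene order plot and the TATA box were added after seeing the data. The members and lists were chosen with earlier results of these data known. Alternatives were quantile, cyclic loess and median scaling, a trended or robust prior, the arrays of 2 groups alone, removal of the dimmest 30% of genes, all probe sets, means of probe sets, a replicate block and leaving out each array. In each comparison, leaving out either array of the group not compared repeats the fit of the 2 groups alone. The 6 fits without an array are therefore not all distinct.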

Additional observations from a re-analysis of the deposited data

Results flagged for a closer look

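The wound effect differed between day 4 and day 1 by a test of the difference itself for 2 genes. They were Ccl2 (day 4 minus day 1 −1.25, adjusted p = 0.0486) and Ccl12 (−0.92, adjusted p = 0.0141), both from limma over all genes. Both were lower on day 4 on 2 of 2 arrays, but the days did not overlap for 10 of 10 genes and for 47.6% of all genes. With only the arrays of the 2 wound groups neither was called. Leaving out 1 array gave adjusted p between 0.0732 and 0.208 for Ccl2, and at most 0.0985 for Ccl12.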

How the results depend on the processing

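The count of 10 genes called higher on day 1 held under all 16 alternatives, and so did the count of 10 on day 4 apart from 9 without day 4 wound replicate 2, where Ccl9 missed the threshold. Between the days the count of 2 called lower was 1 under quantile normalization (where Ccl2 had an adjusted p of 0.0564), 0 with only the arrays of the 2 groups, 0 when all probe sets were adjusted together, and 0 to 1 when an array was left out. Leaving out an intact array took the calls over all genes between the days from 444 to 17 (8 higher and 9 lower), the same as with only the 2 groups. With the replicate number as a replicate block the count was 4, with Ccl7 (adjusted p = 0.0406) and Ccr1 (0.0223) called as well, and this changed no other call of the 10 genes. The numbers were not taken to pair samples, as the labels state no pairing. The replicate differences of the 2 wound groups correlated at 0.69 over genes, and with those of intact skin at 0.01 and 0.02. Only the 0.69 bears on day 4 against day 1, and whether the wound groups shared a replicate effect was not tested. Over all genes the block called 235 higher and 348 lower between the days, against 217 and 227 in the main fit. Ccl4 was called under cyclic loess (0.0492) and Ccl7 under a mean-variance trend (0.0494). No difference of the 10 genes changed sign under any alternative; over genes and alternatives 160 of 160 values kept their side of the threshold on day 1, 159 on day 4 with 1 lost, and 140 between the days with 16 lost and 4 gained. Only the quantile, cyclic loess and median scalings could have changed a sign. The other settings keep the group means or leave out an array, and arrays of the compared groups did not overlap for any of the 10 genes. Leaving out an array of the group not compared gives the fit of the compared groups alone, so the alternatives are not all distinct. Signal near background limits Ccr1 in intact skin.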
